A study of Homo sapiens with 6 samples.

Results

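The comparison asked which transcripts differed more, or in another direction, when CTNNB1 was targeted by siRNA than when MYC was, in LS180 cells. It used 4 of the 6 Affymetrix arrays of the series: 1 array of cells given CTNNB1 siRNA, 1 given MYC siRNA, and 1 control siRNA array named for either knockdown. For each of 14812 genes the log2 difference of an siRNA array from its own control was divided by the standard deviation (SD) of that pair over all genes. The MYC value was then subtracted from the CTNNB1 value to give the scaled difference. A value of 3 means that a gene stood 3 SD units higher in the CTNNB1 pair than in the MYC pair. The other arrays, a knockdown of the long non-coding RNA MYU with its control, entered no contrast, and their difference is given beside some genes.

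LS180 is an established human colorectal adenocarcinoma line, known to carry an activating mutation of CTNNB1. CTNNB1 encodes beta-catenin, which enters the nucleus when Wnt signalling is on and serves there as coactivator of the TCF and LEF factors. MYC is one of the genes these factors activate in the intestine, and its protein, with its partner MAX, binds E-box sequences and drives genes of ribosome production and cell growth. In the crypts of the gut, Wnt signalling keeps stem and progenitor cells dividing, and differentiated cells arise where it declines. A knockdown of CTNNB1 can therefore lower MYC as well, and the contrast with a MYC knockdown asks which other transcripts differ.

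The labels give the cell line, the siRNA and total RNA as the material. Time, dose, siRNA sequences and the number of cultures are not stated there. In the treatment tag of the CTNNB1 array the target reads CTNNB2, whereas CTNNB1 stands in the title and the source. Each array was the only one of its group, so no difference has a replicate check, no p-value is given, and "higher" and "lower" describe these arrays alone. The authors centred the values within each pair, so expression levels are lost and the arrays of a pair hold the same number with opposite signs. Both control arrays carry the number 1 in their titles, and whether they are 1 hybridisation cannot be told from the values. In that case the control would cancel from a plain difference of the pairs and would remain in part in the scaled one. CTNNB1 itself has 0 listed probe sets and was not analysed here.

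MYC itself was lower in both knockdowns, by -2.38 with CTNNB1 siRNA and -1.18 with MYC siRNA, on the log2 scale. The CTNNB1 value was 2.01 times the MYC value. The SD over all genes was likewise larger in the CTNNB1 pair, at 0.51 against 0.28, a ratio of 1.83. In SD units MYC therefore stood at -4.71 and -4.27, a scaled difference of -0.44, so its transcript was about equally far down on the scale of either pair. In the MYU pair MYC stood at 0.04.

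Of 15 measured colon epithelial markers, 14 had a scaled difference above 0 (7334 of all 14812 genes). That difference compares 2 knockdowns of the same line and cannot check the identity of the cells. Levels are lost, so presence or absence of a marker could not be read. Of 4 fibroblast markers, LUM, the matrix proteoglycan lumican, stood at 2.78 in the CTNNB1 pair against 0.22 in the MYC pair, and the other members had scaled differences between -0.56 and 0.04. Of 8 leukocyte markers, CD68, which encodes a lysosomal membrane protein, stood at 2.65 and 0.48, and the other members lay between -0.60 and 1.22. None of 8 endothelial markers passed 3. All arrays were of the LS180 line, and the part of other cells in the results was not tested.

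Over the 14812 genes the scaled difference had a median of -0.0026 and an SD of 0.88, and its interquartile range ran from -0.37 to 0.29. It reached at least 3 in 125 genes (0.844% of all genes) and -3 or lower in 59 genes (0.398%), 1.24% in all, by a fixed limit of size that is no test. The plain log2 difference between the pairs reached 2-fold in 291 genes above 0 (1.96%) and 243 below 0 (1.64%). The highest value was 11.16 and the lowest -5.76, so the upper tail was longer. At the limit itself lay MOGAT3 (3.00253) and CEP97 (-3.03) just inside, and CDHR2 (2.99874) and ADK (-2.96) just outside. Among 132 genes of families used mainly in other tissues, chosen as a view of the scatter of these arrays, 0 passed the limit and the highest value was 1.31. The levels of those genes are not known, so the scatter of strongly expressed genes remains unmeasured.

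**Figure D1:**
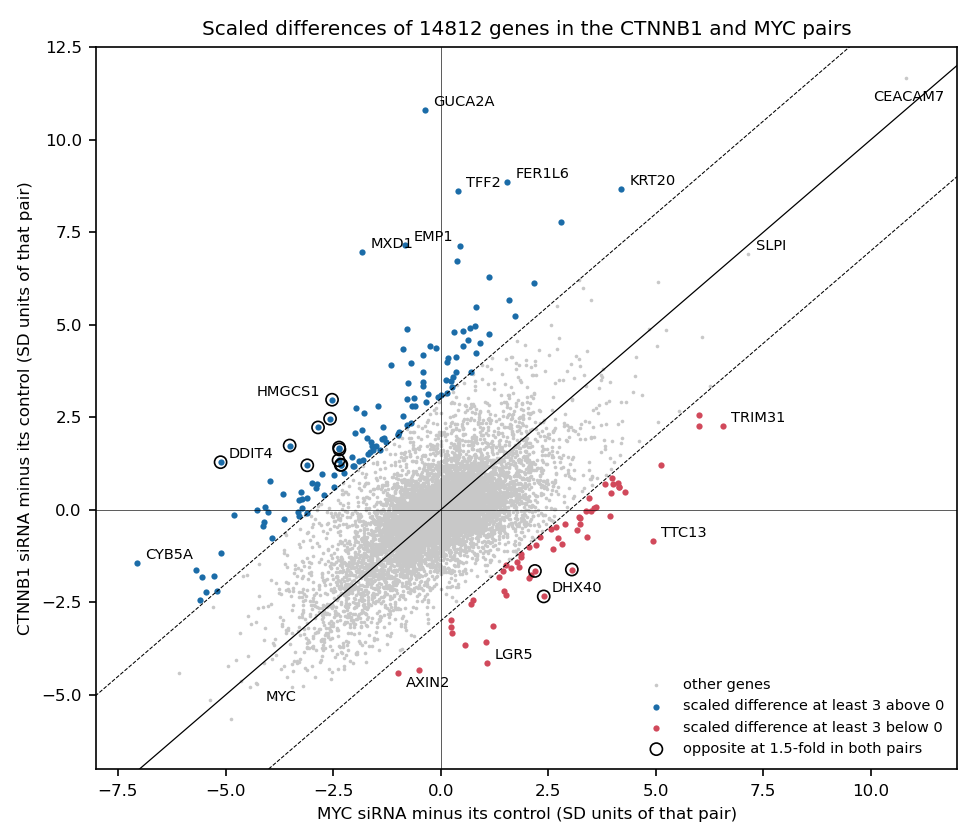
Each point is 1 of 14812 genes. The horizontal axis gives the MYC siRNA array minus its control and the vertical axis the CTNNB1 siRNA array minus its control, both in SD units of that pair; the solid line marks equal values, the dashed lines a gap of 3, and rings the 14 genes that moved at least 1.5-fold in opposite directions. The 125 blue genes spread upward, to GUCA2A at a gap of 11.16, while MYC lies near the line of equality.

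The tails were built differently. Among the 125 high genes the CTNNB1 pair had the larger value in SD units for 74 and the MYC pair for 51, and 48 had a MYC value within 1 SD unit of 0. In 36 of the 125 both pairs were beyond 1 SD unit with opposite signs. Among the 59 low genes the MYC pair had the larger value for 44 and the CTNNB1 pair for 15, and 27 had a CTNNB1 value within 1 SD unit of 0. In 20 of the 59 both pairs were beyond 1 SD unit with opposite signs. The larger value thus lay mostly in the CTNNB1 pair in the high tail and mostly in the MYC pair in the low tail. In the MYU pair the high genes had a median of -0.08, with 3 at least 1.5-fold higher and 10 lower. The low genes had a median of 0.01, with 4 higher and 5 lower.

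Promoter sequences of a few genes on which the contrast turns are given first, as the RefSeq reference of build GRCh38.p14, from 250 bases before the annotated start up to it, 5′ to 3′ on the strand of the gene. Shown are the adjacent guanylin genes GUCA2A, highest of all genes, and GUCA2B, then MXD1, the second highest, and 3 sterol genes of the high tail. Next come 2 genes lower with CTNNB1 siRNA and higher with MYC siRNA, then CDK4 and PCNA, which were lower in both pairs. Capitals mark any match to CACGTG (the E-box), CTTTGAT (a TCF and LEF motif), TTTGAA (the CHR of mitotic genes), TTTCCCGC (an E2F motif) or CCAAT (the CCAAT box), on either strand. None of these motifs overlapped another in the sequences shown.
GUCA2A, chr1:42164746-42164995, minus strand: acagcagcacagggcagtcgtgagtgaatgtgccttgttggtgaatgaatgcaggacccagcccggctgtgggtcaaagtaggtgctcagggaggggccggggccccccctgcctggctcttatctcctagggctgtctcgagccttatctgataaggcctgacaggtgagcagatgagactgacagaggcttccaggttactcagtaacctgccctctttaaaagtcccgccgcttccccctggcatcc
GUCA2B, chr1:42153160-42153409, plus strand: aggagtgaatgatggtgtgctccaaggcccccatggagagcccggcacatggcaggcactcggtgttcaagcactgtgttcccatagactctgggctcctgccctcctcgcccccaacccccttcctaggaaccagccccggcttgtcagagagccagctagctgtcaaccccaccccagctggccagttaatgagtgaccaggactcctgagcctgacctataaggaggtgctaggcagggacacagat
The guanylin pair held no match to the 5 motifs in this window, which says only that these letters are not there.
MXD1, chr2:69914859-69915108, plus strand: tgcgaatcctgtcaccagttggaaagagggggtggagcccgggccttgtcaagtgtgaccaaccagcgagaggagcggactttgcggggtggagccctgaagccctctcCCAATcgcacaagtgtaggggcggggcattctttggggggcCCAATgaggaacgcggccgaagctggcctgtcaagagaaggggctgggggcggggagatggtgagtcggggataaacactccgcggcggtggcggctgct
HMGCS1, chr5:43313413-43313662, minus strand: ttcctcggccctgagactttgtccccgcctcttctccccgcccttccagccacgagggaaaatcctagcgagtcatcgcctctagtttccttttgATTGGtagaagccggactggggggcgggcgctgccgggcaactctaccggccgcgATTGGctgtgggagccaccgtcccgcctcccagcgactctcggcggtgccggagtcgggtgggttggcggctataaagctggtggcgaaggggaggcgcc
INSIG1, chr7:155297628-155297877, plus strand: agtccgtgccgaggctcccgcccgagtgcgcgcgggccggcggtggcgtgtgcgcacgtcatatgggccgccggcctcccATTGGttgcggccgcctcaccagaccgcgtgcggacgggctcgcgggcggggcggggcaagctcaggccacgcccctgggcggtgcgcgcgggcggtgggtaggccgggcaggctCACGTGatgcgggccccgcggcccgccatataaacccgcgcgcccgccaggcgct
MVD, chr16:88663092-88663341, minus strand: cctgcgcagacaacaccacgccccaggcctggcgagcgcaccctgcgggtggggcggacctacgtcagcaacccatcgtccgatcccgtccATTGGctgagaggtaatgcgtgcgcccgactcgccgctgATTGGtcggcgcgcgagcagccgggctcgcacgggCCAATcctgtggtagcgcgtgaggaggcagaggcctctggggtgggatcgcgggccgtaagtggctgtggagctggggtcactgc
MXD1 and HMGCS1 each held 2 CCAAT boxes and MVD 3. INSIG1 held 1 CCAAT box and 1 E-box.
DHX40, chr17:59565360-59565609, plus strand: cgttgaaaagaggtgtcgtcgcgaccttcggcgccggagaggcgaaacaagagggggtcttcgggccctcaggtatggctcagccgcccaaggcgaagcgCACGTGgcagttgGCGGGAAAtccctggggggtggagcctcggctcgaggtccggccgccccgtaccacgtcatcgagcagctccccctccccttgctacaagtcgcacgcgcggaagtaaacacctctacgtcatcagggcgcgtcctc
GNPAT, chr1:231240962-231241211, plus strand: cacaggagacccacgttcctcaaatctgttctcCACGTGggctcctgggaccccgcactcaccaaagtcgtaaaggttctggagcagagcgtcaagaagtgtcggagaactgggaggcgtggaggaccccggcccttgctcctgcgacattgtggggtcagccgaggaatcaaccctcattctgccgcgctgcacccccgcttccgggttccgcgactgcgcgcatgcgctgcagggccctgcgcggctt
DHX40 held 1 E-box and 1 E2F motif, and GNPAT 1 E-box.
CDK4, chr12:57752311-57752560, minus strand: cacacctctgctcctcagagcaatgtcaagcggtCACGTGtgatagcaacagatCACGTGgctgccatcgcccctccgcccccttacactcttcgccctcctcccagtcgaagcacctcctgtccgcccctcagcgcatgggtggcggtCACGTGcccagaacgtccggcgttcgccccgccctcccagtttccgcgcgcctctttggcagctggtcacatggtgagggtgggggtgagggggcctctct
PCNA, chr20:5126623-5126872, minus strand: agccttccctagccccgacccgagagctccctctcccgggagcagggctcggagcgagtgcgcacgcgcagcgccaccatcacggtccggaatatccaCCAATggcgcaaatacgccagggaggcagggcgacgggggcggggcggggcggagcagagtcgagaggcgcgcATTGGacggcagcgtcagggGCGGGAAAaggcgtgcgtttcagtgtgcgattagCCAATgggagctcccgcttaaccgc
CDK4 held 3 E-boxes, and PCNA 1 E2F motif and 3 CCAAT boxes.

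Motif shares were counted over windows from 250 bases before to 50 after the start, which 10736 of the 14812 genes had. The CCAAT box was in 36% of these promoters and in 35.7% of all 27305 promoters of the table. It was in 39 of the 96 high genes with a promoter (40.6%) and in 19 of 33 genes of cholesterol and fatty acid synthesis (57.6%). It was in 44 of 61 mitosis promoters (72.1%) and 16 of 24 replication promoters (66.7%), lists that were lower in both pairs, and in 4 of 27 enterocyte and colonocyte promoters (14.8%). The E-box was in 9.03% of the array's promoters and 7.43% of all, in 7 of the 96 high genes (7.29%), and in 9 of 47 low genes with a promoter (19.1%). For the lists lower in both pairs the E-box was in 19 of 30 MYC target promoters (63.3%), and the CHR in 36 of 61 mitosis promoters (59.0%) against 11.8% of the array's promoters. The TCF and LEF motif was in 1.92% of the array's promoters, in 3 of the 96 high and 1 of the 47 low genes, and in 1 of 23 Wnt target promoters. These shares describe letters in a short window and no binding.

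Genes of differentiated gut epithelium led the high tail. GUCA2A, the precursor of guanylin, a peptide hormone of mature enterocytes and goblet cells, stood at 5.46 with CTNNB1 siRNA, -0.10 with MYC siRNA and 0.09 with MYU siRNA. Its neighbour on chromosome 1, GUCA2B, which encodes uroguanylin, stood at 3.60, 0.13 and 0.11. Both were therefore high in the CTNNB1 pair alone of the 3 pairs, with scaled differences of 11.16 and 6.67. The receptor of both peptides, GUCY2C, moved in both knockdowns, at 1.47 and 1.2, a scaled difference of -1.41.

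The trefoil peptides are secreted with mucus and protect the gut surface. TFF2 stood at 4.36 in the CTNNB1 pair against 0.11 in the MYC pair, and TFF1, its neighbour on chromosome 21, at 3.18 and 0.31. Scaled differences were 8.22 and 5.17. Other secretory genes in the tail were FER1L6, a member of the ferlin family (4.48 and 0.43, scaled 7.32), MUCL3, a mucin-like gene whose 3 probe sets had scaled differences of 4.57 to 5.44, and the secretory cell transcription factor SPDEF (2.24 and -0.07, scaled 4.66). AGR2, a disulfide isomerase needed for mucin production, stood at 1.29 and -0.24, a scaled difference of 3.41. ATOH1, the factor that specifies secretory cells, did not share this, at -0.44 and -0.10. The goblet and secretory list had 30 measured members. Of these, 6 passed 3 above 0 and 0 below (0.844% and 0.398% of all genes). The median was 0.83 against -0.0026 over all genes. Above 0 lay 21 members and below it 8 (7334 and 7450 of all 14812 genes).

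Colonocyte genes showed the same order, with exceptions. Of 38 measured enterocyte and colonocyte genes, 9 passed 3 above 0 and 0 below (0.844% and 0.398% of all genes). Their median was 0.85. In the CTNNB1 pair 21 of the 38 were at least 2-fold higher (2.8% of all genes), and in the MYC pair 5 were (0.412% of all genes). CEACAM1, an adhesion molecule, stood at 3.40 and 0.10, EMP1, an epithelial membrane protein gene, at 3.61 and -0.23, and KRT20, the keratin of mature surface cells, at 4.39 and 1.16. Carbonic anhydrase genes CA2 and CA12 had scaled differences of 3.78 and 3.21. The highest gene of either pair, CEACAM7, was high in both, at 5.90 and 3.0, and its scaled difference was 0.84. SLPI, a protease inhibitor, at 3.49 and 1.98, and CDHR5, a protocadherin of the brush border, at 2.46 and 1.45, likewise had scaled differences near 0, of -0.23 and -0.38. TSPAN8, a tetraspanin, stood at 1.17 and 1.14 and had a scaled difference of -1.79. High values in the CTNNB1 pair therefore did not make a gene part of the contrast, and members of the same list fell on either side of it.

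Of the 125 high genes 16 belonged to the differentiation lists (12.8%), against 0 of the 59 low genes and 77 of all 14812 (0.520%). These lists had been drawn up with earlier results of the same arrays known, so the share is a description. The colon epithelial markers had the highest median of the 67 lists compared, at 2.04. Their members include the claudin genes CLDN3 (0.88 and -0.18), CLDN4 (0.90 and -0.07) and CLDN7 (0.43 and -0.36), which seal the space between cells. GPA33, a surface antigen of gut epithelium, stood at 1.02 and -0.28, a scaled difference of 3.01. CDX1, an intestinal transcription factor, stood at 0.30 and -0.40, while its relative CDX2 lay at -0.42 and -0.29.

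Among the other keratins, KRT4 (2.32 and 0.18) and KRT13 (1.68 and 0.07), which are typical of non-keratinising squamous epithelium, passed 3 with scaled differences of 3.96 and 3.07. The ephrin ligands EFNB2 (2.12 and -0.11) and EFNB1 (1.55 and -0.02), whose receptors keep cells in position along the crypt, passed it too, at 4.60 and 3.12. Their receptor EPHB3 was lower in both pairs, at -1.47 and -0.58. Of 17 genes with the symbol stem KLF, the Kruppel-like zinc finger factors, the median was 0.82. KLF6 led them, at 2.23 and 0.14, a scaled difference of 3.90, followed by KLF16 and KLF3. KLF16 owed its 2.84 to the MYC pair (-0.09 and -0.83) and KLF3 its own 2.84 to the CTNNB1 pair (0.98 and -0.25).

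**Figure D2:**
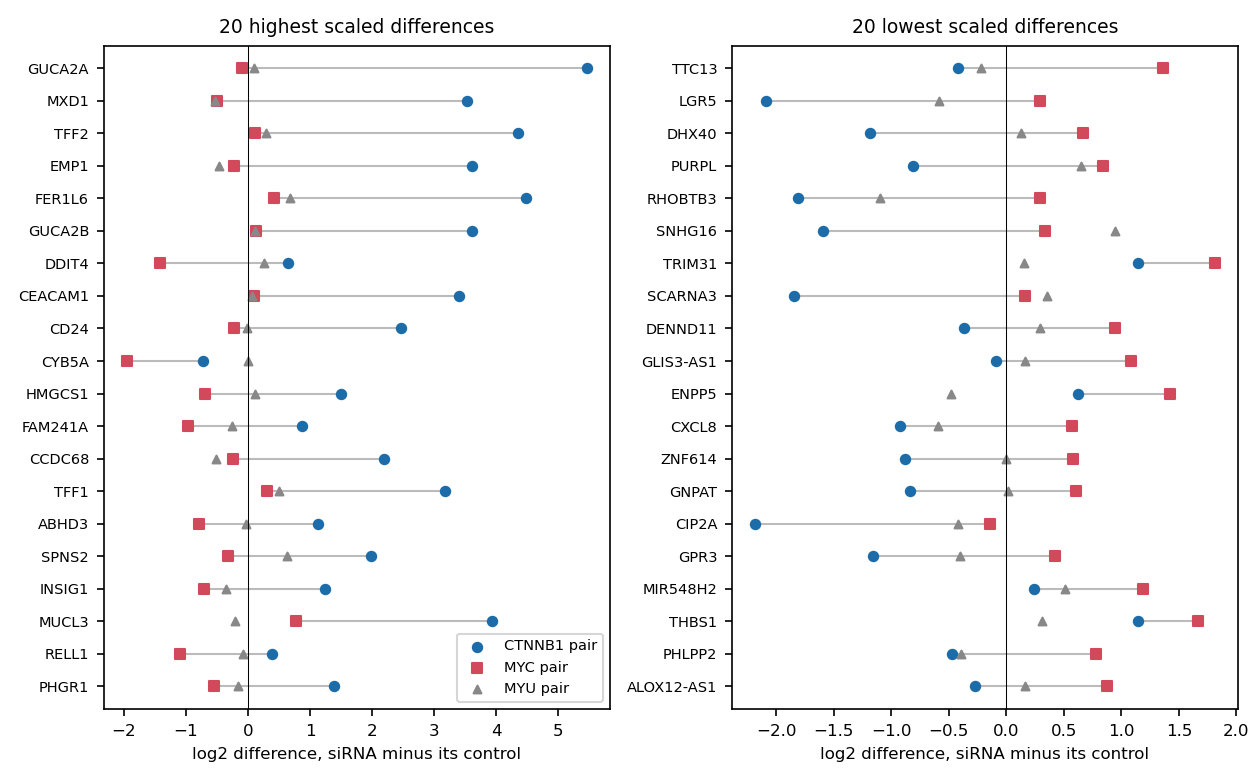
The 20 genes with the highest (left) and the lowest (right) scaled difference are shown from the most extreme at the top, with the log2 difference of an siRNA array from its control on the horizontal axis; circles are the CTNNB1 pair, squares the MYC pair and triangles the MYU pair. GUCA2A reaches 5.46 with CTNNB1 siRNA alone, while TTC13 on the right reaches 1.36 with MYC siRNA.

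Of 12 measured genes of the MYC network 1, MXD1, passed 3 (0.844% of all genes). MXD1 encodes a partner of MAX that competes with MYC and is used by differentiating cells. It stood at 3.52 with CTNNB1 siRNA, -0.51 with MYC siRNA and -0.53 with MYU siRNA, the second highest scaled difference of all genes (8.79). MLX, which dimerises with MXD proteins, stood at 0.81 and -0.20, a scaled difference of 2.32. MAX lay at 0.42 and -0.05, MXI1 at -0.01 and -0.39, MXD4 at 0.18 and 0.31, and the large MAX partner MGA at -0.92 and -0.24. The 12 network genes had a median of 0.90, with 7 above 0 and 5 below (7334 and 7450 of all 14812 genes). The 2 probe sets of MXI1 disagreed, with scaled differences of 0.47 and 2.29.

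Genes listed as repressed by MYC were found on both sides of the contrast. Of 12 measured, 3 passed 3 above 0 and 1 passed it below (0.844% and 0.398% of all genes). Those above were MXD1, KLF6 and ARRDC4, a relative of TXNIP. The gene below was THBS1, the matrix protein thrombospondin, at 1.14 and 1.66, a scaled difference of -3.74. CLU, the chaperone clusterin, stood at 0.13 and 0.61, and ARRDC3 at 0.55 and 0.82. TXNIP, at 0.88 and 0.44, had a scaled difference of 0.16.

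Cholesterol synthesis begins with acetyl-CoA and passes through HMG-CoA and mevalonate to sterols. Its genes are driven by SREBP factors, which the INSIG proteins hold back in the endoplasmic reticulum when sterols are plentiful. Of 36 measured genes of sterol and fatty acid synthesis, 13 were at least 1.5-fold higher and 1 lower in the CTNNB1 pair (6.44% and 9.8% of all genes), and 0 were higher and 4 lower in the MYC pair (2.15% and 3.63%). HMGCS1, the HMG-CoA synthase gene, stood at 1.5 and -0.70, and INSIG1 at 1.25 and -0.71, with scaled differences of 5.50 and 5.03. MVD, which makes isopentenyl diphosphate from mevalonate diphosphate, stood at 2.0 and -0.19, and ACSS2, which makes acetyl-CoA from acetate, at 2.09 and 0.10. ACAT2, the thiolase of the first step, stood at 0.60 and -0.56. HMGCS1 and INSIG1 were thus at least 1.5-fold from their controls in opposite directions, and ACAT2 fell short of that fold in the MYC pair.

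Not all steps did this. SQLE, squalene epoxidase, stood at 1.09 and 0.07 and MSMO1, a sterol methyl oxidase, at 1.07 and 0.55, a scaled difference of 0.13. SREBF2, the gene of the sterol SREBP, lay at 0.70 and 0.40, and its escort SCAP at 0.07 and 0.30. ELOVL6, a fatty acid elongase, stood at 0.00 and -1.18, ACLY, which makes cytosolic acetyl-CoA from citrate, at -0.26 and -0.90, FASN at 0.11 and -0.50, and SCD, the stearoyl desaturase, at 0.05 and -0.53. ACSL5, a long-chain acyl-CoA synthetase, had the lowest scaled difference of the list, at -1.82, from -0.85 and 0.04. Of the 36 measured members 7 passed 3 above 0 and 0 below (0.844% and 0.398% of all genes). Above 0 lay 28 (7334 of all 14812 genes), and the median was 0.95. In 19 of 36 the pairs had opposite signs, as they had in 4586 of all 14812 genes. The median of the list kept its sign in all 8 alternative calculations.

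**Figure D3:**
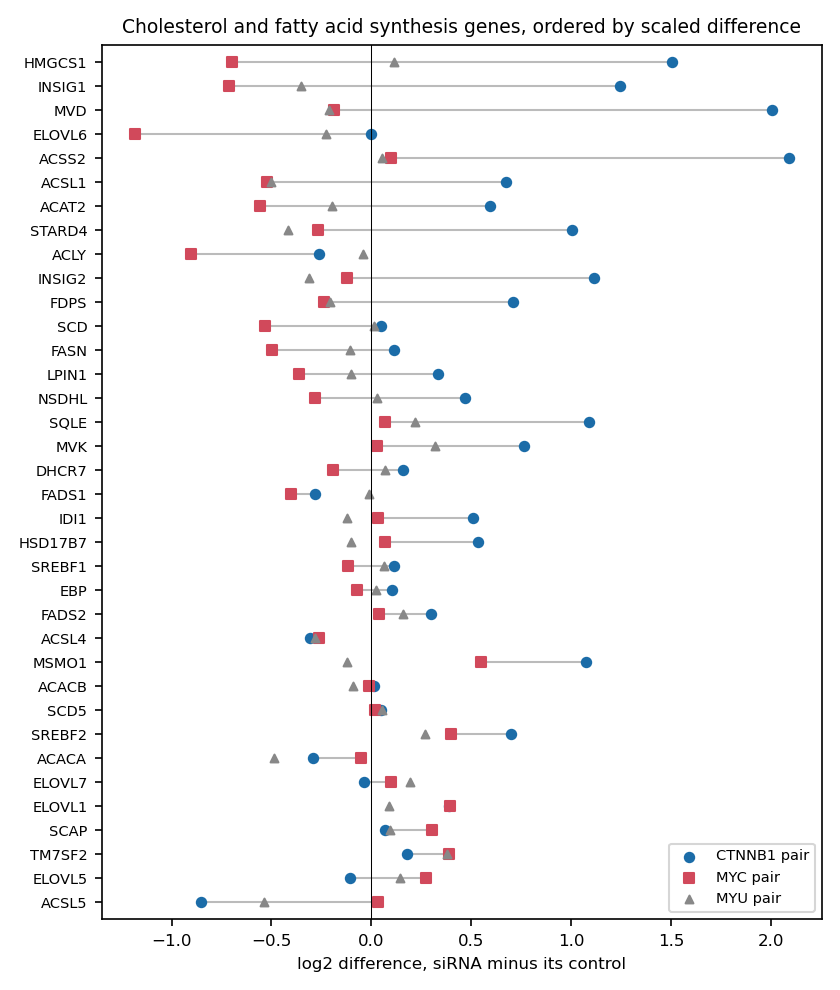
The 36 measured genes of cholesterol and fatty acid synthesis are ordered by scaled difference, with the log2 difference from the control on the horizontal axis for the CTNNB1 (circles), MYC (squares) and MYU (triangles) pairs. Lines join the CTNNB1 and MYC values; HMGCS1 and INSIG1 at the top span both sides of 0, and ACSL5 at the bottom has its CTNNB1 value at -0.85.

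Of 596 genes at least 1.5-fold from their controls in both pairs, 582 moved in the same direction. Only 14 of 14812 genes (0.0945%) moved at least 1.5-fold in both pairs and in opposite directions. Of these, 11 (0.0743%) were higher with CTNNB1 siRNA and lower with MYC siRNA. DDIT4, which restrains the growth kinase mTORC1 and is induced by hypoxia and amino acid stress, led the 11, at 0.65 and -1.42 with 0.26 in the MYU pair. HMGCS1 and INSIG1, described above, were among them. ABHD3, a phospholipase gene, stood at 1.13 and -0.79, and FAM241A at 0.88 and -0.97. PAPSS2, which makes the sulfate donor for sulfated mucins and matrix, stood at 0.61 and -0.86, but was also lower in the MYU pair, at -0.82. WSB2, FRMD3, MCU (the calcium channel of the mitochondrial inner membrane), TPMT (thiopurine methyltransferase) and OSTF1 completed the order, with scaled differences of 4.04, 3.98, 3.71, 3.53 and 3.53. In each of these 5 the MYC value lay between -0.64 and -0.66.

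The reverse order held 3 genes (0.0203%). DHX40, a DEAH-box RNA helicase, stood at -1.18 and 0.66, GNPAT, the acyltransferase that starts ether lipid synthesis, at -0.83 and 0.61, and PURPL, a long non-coding RNA, at -0.82 and 0.84. PURPL was also higher in the MYU pair, at 0.65, while GNPAT lay at 0.01 there. All 14 genes were measured by 1 probe set each. None reached 2-fold in both pairs.

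Neighbouring genes were looked at because the guanylin and trefoil genes lie side by side. Of 11887 pairs of adjacent measured protein-coding genes, 9 had both members past 3 on the same side. Besides these gene families they included DDIT4 with MCU on chromosome 10 and TTC13 with ARV1, a gene of sterol transport, on chromosome 1. DDIT4 and MCU were both at least 1.5-fold higher with CTNNB1 siRNA and at least 1.5-fold lower with MYC siRNA. TTC13 and ARV1 lie near GNPAT, and of 10 measured genes from CAPN9 to EGLN1, a stretch chosen after its values were seen, 3 passed -3. The other members of that stretch ran from -1.37 (SPRTN) to 2.80 (CAPN9).

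Of 20 measured hypoxia genes, 15 lay above 0 with CTNNB1 siRNA and 15 below 0 with MYC siRNA. Over all 14812 genes these counts were 7240 and 7312. The genes of these counts were not all the same: the pairs had opposite signs in 10 of the 20 (4586 of all 14812 genes). HK2, the hexokinase of the first step of glycolysis, stood at 0.50 and -0.76, and VEGFA, the vascular growth factor, at 0.16 and -0.86. The list had a median scaled difference of 0.95, with 15 above 0 (7334 of all 14812 genes) and 3 past 3 (0.844% of all genes). TRIB3, a pseudokinase induced by ATF4, stood at 0.37 and -0.53, whereas the serine synthesis genes PSAT1 (-1.0 and -0.93) and PSPH (-0.89 and -0.83) were lower in both pairs. The ATF4 and amino acid stress list had a median of 0.90 over 15 genes, and the list shares DDIT4 with the hypoxia list. Log2 medians of the ATF4 list were below 0 in both pairs, at -0.10 and -0.30. The median of its plain differences was only 0.015. The glycolysis list, with 9 genes and a median of 0.45, had its sign turned to -0.0585 in the plain difference and -0.0478 as the residual from the MYC pair. CCL20, a chemokine of gut epithelium, stood at 0.21 and -1.02, while CXCL8, the neutrophil chemokine, stood at -0.92 and 0.57. These NF-kappaB targets lay at opposite ends of their list of 20 genes, with scaled differences of 4.09 and -3.89.

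Genes of the ERK feedback and EGFR ligand list had a median of 0.87. Of its 32 members 27 lay above 0 (7334 of all 14812 genes) and none passed 3. ERRFI1, an inhibitor of EGFR, stood at 1.0 and -0.27, DUSP1, a MAP kinase phosphatase, at 1.74 and 0.15, and EGFR at 0.36 and -0.48. DUSP5 had a scaled difference of 2.66 as the mean of probe sets at 0.39 and 4.93. At the other end lay ETV4, an ETS factor downstream of ERK, at -1.60 and -0.23, and EGF at -0.03 and 0.59.

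By the median alone, Wnt target genes as a group did not stand apart in this contrast. Their 38 measured members had a median of -0.70 SD units in the CTNNB1 pair, against -0.71 in the MYC pair. The median scaled difference was 0.07, inside the interquartile range of all genes, and its sign turned in the plain difference, under the median absolute deviation and as the residual. Of the 38, 10 were at least 2-fold lower in the CTNNB1 pair (4.14% of all genes) and 2 in the MYC pair (0.446%). None passed 3 above 0 and 2 passed it below (0.844% and 0.398% of all genes). The plain difference was at least 2-fold below 0 in 6 of the 38 and above 0 in 1 (1.64% and 1.96% of all genes). The SD of the scaled difference was 1.57 over the list and 0.88 over all genes.

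The 2 Wnt target genes past -3 were LGR5 and AXIN2. LGR5, the R-spondin receptor that marks crypt stem cells, stood at -2.09 with CTNNB1 siRNA, 0.30 with MYC siRNA and -0.59 with MYU siRNA, the second lowest scaled difference of all genes (-5.20). AXIN2, the scaffold of the complex that degrades beta-catenin and a feedback target of Wnt signalling, stood at -2.23, -0.27 and 0.06, a scaled difference of -3.41. Both were thus more than 2 log2 units lower in 1 pair and near their control in the other. CD44 (-2.13 and -0.62) and NRCAM (-1.05 and 0.06), both cell adhesion genes, came closest to them among genes lower with CTNNB1 siRNA, at -1.97 and -2.29. The ubiquitin ligases RNF43 (-1.48 and -0.44) and ZNRF3 (-1.53 and -0.76), which remove Wnt receptors, were lower in both, with scaled differences of -1.34 and -0.30. ASCL2, a stem cell factor, stood at -0.73 and -0.54, and CDCA7 at -2.05 and -1.32.

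DKK1, a secreted Wnt antagonist, was higher in both pairs by nearly the same log2 value, 1.69 and 1.74, which gave a scaled difference of -2.92. CCND1, the cyclin D1 gene, stood at -0.10 and -0.59, and PPARD, a nuclear receptor, at 1.32 and -0.03. The 17 crypt stem and progenitor markers, some of them also in the Wnt list, had medians of -2.21 and -1.59 SD units and a median scaled difference of -0.08. The plain difference was at least 2-fold below 0 in 5 of the 17 and above 0 in 0 (1.64% and 1.96% of all genes). LGR5 was the 1 member past -3, and LRIG1, a stem cell receptor (-1.33 and -0.32), and EZH2, a histone methyltransferase (-1.94 and -0.54), lay at -1.47 and -1.90.

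**Figure D4:**
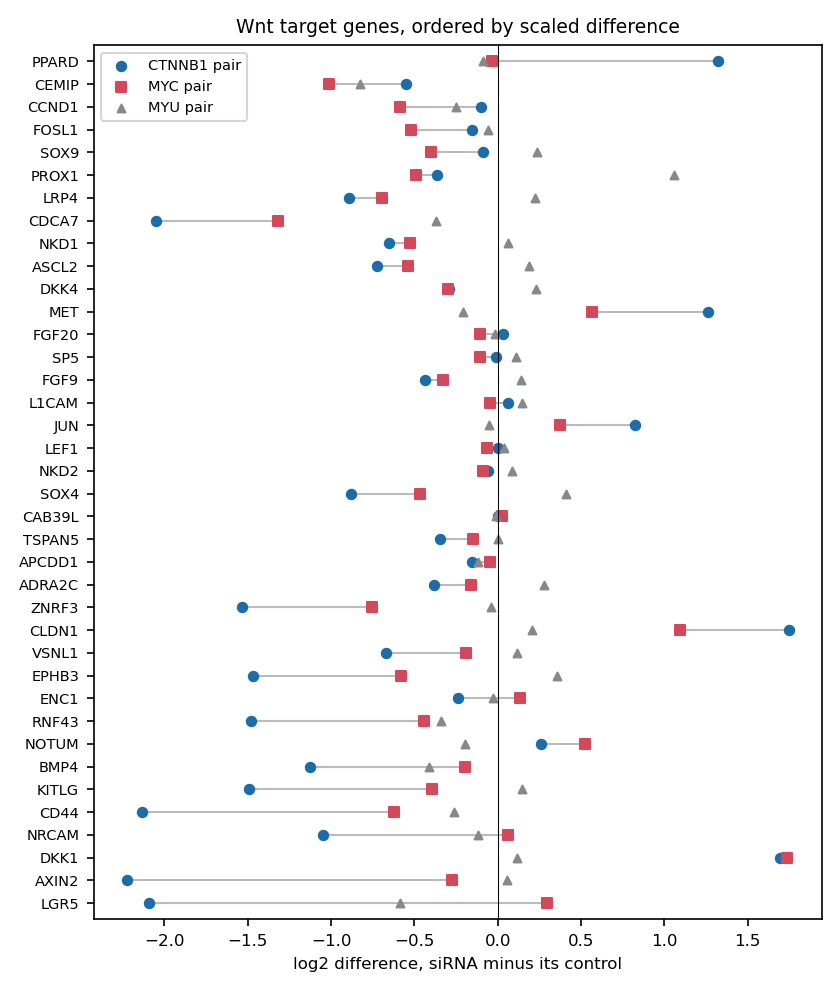
The 38 measured Wnt target genes are ordered by scaled difference, with the log2 difference from the control on the horizontal axis for the CTNNB1 (circles), MYC (squares) and MYU (triangles) pairs. LGR5 and AXIN2 at the bottom have CTNNB1 values of -2.09 and -2.23 beside MYC values of 0.30 and -0.27, while most other genes have both values on the same side of 0.

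The low tail held genes of several other kinds. TTC13, a tetratricopeptide repeat gene, had the lowest scaled difference of all (-5.76), at -0.42 and 1.36. CIP2A, an inhibitor of the phosphatase PP2A, stood at -2.19 and -0.14, and PHLPP2, an AKT phosphatase, at -0.47 and 0.78. TRIM31, a ubiquitin ligase of gut epithelium, was higher in both pairs, at 1.14 and 1.81. Its 5 probe sets had scaled differences of -4.46 to -4.20, but were read on the same arrays and are no replicates. ENPP5 (0.62 and 1.42) and THBS1 likewise entered the tail with both values above 0. GPR3, a receptor that raises cyclic AMP, stood at -1.16 and 0.42.

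Of the 59 low genes 50 were protein-coding, 5 long non-coding RNAs and 3 miRNA genes. Of the 125 high genes 124 were protein-coding, and of all 14812 genes 11911 were protein-coding and 1387 long non-coding RNAs. The host genes of small nucleolar RNAs, whose introns carry the guides of ribosomal RNA modification, had a median of -0.92 over 13 genes. Of these, 12 lay below 0 (7450 of all 14812 genes). SNHG16 stood at -1.59 with CTNNB1 siRNA, 0.34 with MYC siRNA and 0.95 with MYU siRNA, and EPB41L4A-AS1 at -1.42, -0.09 and 0.54. GAS5 (-1.68 and -0.58) and DANCR (-1.42 and -0.74) were lower in both pairs, with scaled differences of -1.24 and -0.13. Of the 21 small nucleolar and Cajal body RNAs, SCARNA3 (-1.84 and 0.16) passed -3 and SCARNA22 (0.03 and -0.72) lay highest at 2.66.

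**Figure D5:**
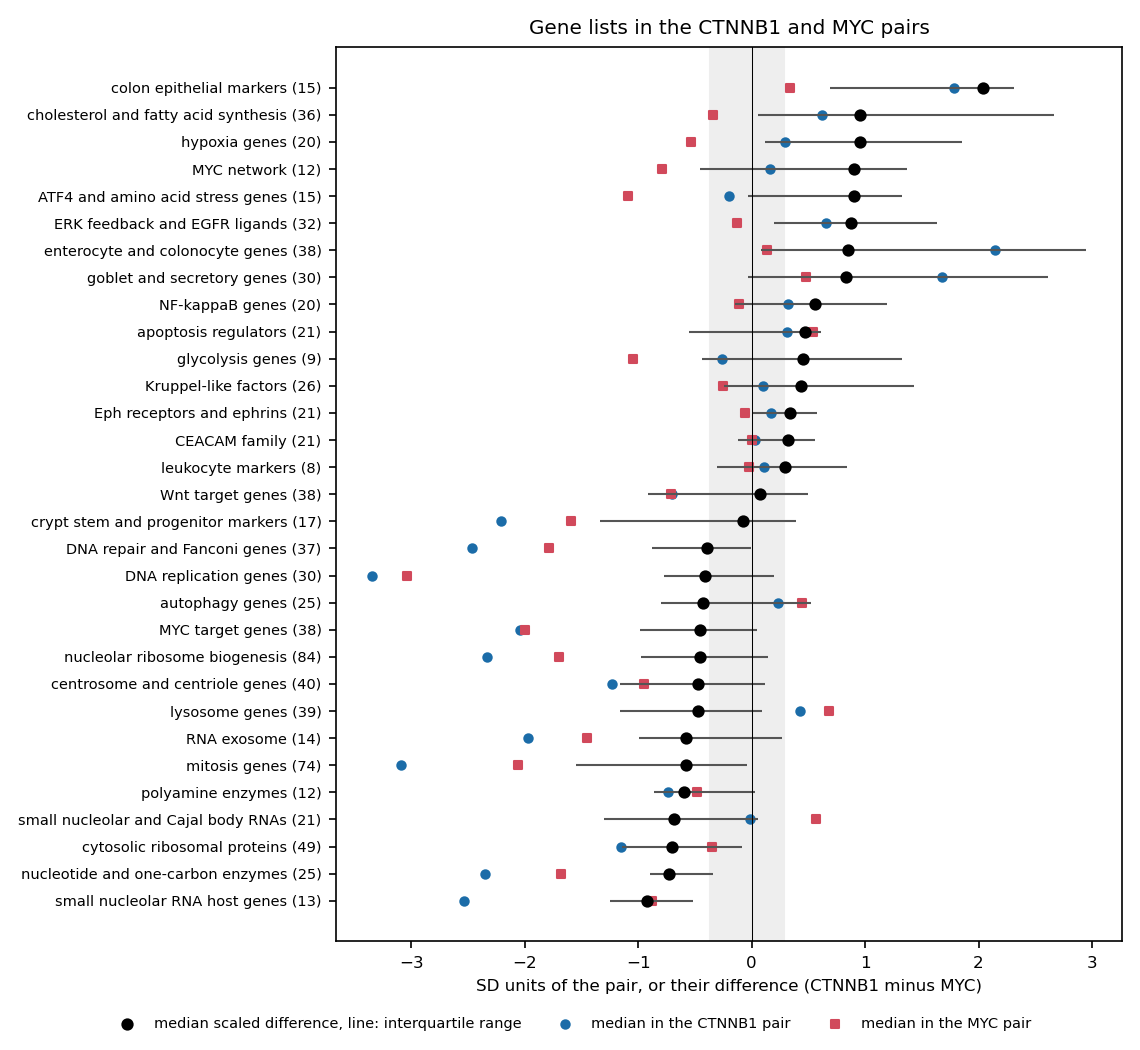
Of 67 gene lists, the 29 whose median scaled difference lay outside the interquartile range of all genes (grey band) are shown with the Wnt target and crypt stem lists, with the number of measured genes in brackets. Black points with lines give the median and interquartile range of the scaled difference, circles and squares the medians in the CTNNB1 and MYC pairs, on an axis in SD units; colon epithelial markers lie at the top with 2.04 and host genes of small nucleolar RNAs at the bottom with -0.92.

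Lists of growth and division genes had medians below 0 in both knockdowns, further down in the CTNNB1 pair. The log2 medians were -1.56 and -0.57 for mitosis genes and -1.69 and -0.84 for replication genes. For nucleolar ribosome biogenesis genes they were -1.18 and -0.47. The 74 mitosis genes had medians of -3.09 SD units in the CTNNB1 pair, against -2.06 in the MYC pair. Their median scaled difference was -0.58, with 58 of them below 0 (7450 of all 14812 genes). CIP2A aside, PLK4, the kinase of centriole duplication (-2.07 and -0.48), and KIF18A, a kinesin of chromosome alignment (-1.32 and -0.09), lay lowest, at -2.36 and -2.30. The 30 replication genes had medians of -3.35 and -3.03 and a median scaled difference of -0.41. MCM8, a helicase gene of DNA repair, stood at -2.31 and -0.70, and PCNA, the sliding clamp, at -2.40 and -0.89. MCM10 (-2.23 and -1.68) and UHRF1 (-1.32 and -1.14) were relatively lower in the MYC pair, with scaled differences of 1.67 and 1.5.

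The 84 nucleolar ribosome biogenesis genes had medians of -2.33 and -1.69 SD units. Their median scaled difference was -0.46, with 59 of them below 0 (7450 of all 14812 genes). NOP53, a nucleolar protein gene, stood at -0.42 and 0.58, and URB1, which acts in the large subunit's assembly, at -1.91 and -0.40. The 49 cytosolic ribosomal protein genes had a median scaled difference of -0.70, with 37 below 0 (7450 of all 14812 genes). None passed 3 in either direction. Their log2 medians were -0.58 and -0.10. Of the 49, 2 lay above 0 with CTNNB1 siRNA and 16 with MYC siRNA (7240 and 7104 of all 14812 genes). RPS19 stood at -0.59 and 0.27, and RPS6 at -0.81 and 0.03. The 38 MYC target genes, at -2.04 and -1.99 SD units, had a median scaled difference of -0.46. HK2 was their 1 member past 3 (0.844% of all genes). NOP58 (-1.95 and -0.55) and ODC1, which starts polyamine synthesis (-1.39 and -0.33), lay lowest. Of 25 nucleotide and one-carbon enzymes 22 lay below 0 (7450 of all 14812 genes). TYMS, thymidylate synthase, stood at -2.29 and -0.81, whereas DHODH, of pyrimidine synthesis, stood at -1.17 in both pairs, a scaled difference of 1.91.

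Of 380 families made by symbol stem, GTF had the highest median, 1.63 over 5 genes. The stem takes in general transcription factors and also GTF2IRD1 (0.23 and -0.34, scaled 1.69). GTF3A, the factor of 5S RNA genes, stood at -1.23 and -1.55. The list of 17 RNA polymerase subunits and general factors had a median of 0.19, inside the interquartile range of all genes. That sign turned in the plain difference, under the median absolute deviation and as the residual. The stem EPS followed GTF with 1.61 over 6 genes, led by EPS8L1 (2.07 and 0.05) and EPS8L3 (0.98 and -0.37). Both are relatives of the actin regulator EPS8. CLIC, the intracellular chloride channel family, had 1.21 over 6 genes, with CLIC5 at 2.52 and 0.71. The lowest were TSPYL with -1.23 over 5 genes, PPIL, a cyclophilin family, with -1.12, and HMGN, nucleosome-binding proteins, with -1.04. TSPYL4 stood at -0.10 and 0.89. The SMC family of chromosome proteins had 7 of 7 scaled differences below 0 (7450 of all 14812 genes), with SMC2 at -1.86 and -0.44.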

How the data were processed

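Total RNA of LS180 cells was labelled with biotin for Affymetrix arrays, per the labels. How probes were normalized and summarised is not stated in the sources used here. The values are on a log2 scale, and within each pair the authors centred them: a knockdown and its control sum to 0 within 1e-06. The log base is unnamed and was taken as 2. Centring leaves 1 number per probe set and pair, so no level, no filter on low values and no spread between controls could be had.

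Of 44629 probe sets, 15835 are listed with 1 gene symbol, 0 with several and 28794 with none. All 15835 identifiers matched the RefSeq table of GRCh38.p14, used for names and gene types, and gave 14812 genes, 11911 of them protein-coding. A gene's value is the mean of its probe sets; 651 genes had several, with a median SD between them of 0.245 in the scaled difference. Each pair was divided by its SD over all genes (0.51 and 0.28). The precision is limited by the number of arrays, 1 per group.

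Counts used a scaled difference of 3, and a fold of 1.5 in both pairs for opposite directions. Of 73 gene lists 68 had at least 5 measured genes and 4 had none, which are not analysed here. The fibroblast list had 4 and is given by member. Another list, not counted among the 73, is not reported here. List medians stand beside the median of all genes. Leukocyte, endothelial and fibroblast markers were listed as other cell types. Motifs were searched in RefSeq promoters.

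The members and lists were chosen with earlier results of these data known. Named genes are MYC, AXIN2, LGR5, the 20 highest and lowest, up to 15 genes per opposite order, up to 4 per list by absolute scaled difference, and up to 3 of each of the 6 highest and 6 lowest families by symbol stem. Uncharacterised symbols and pseudogenes were counted and not named. Genes named beyond this rule, such as further members of the sterol, Wnt and differentiation lists, were chosen after their values were seen. Alternatives were other scales, other limits and other choices of probe sets and genes. The calculations were tested on simulated data with shifts added to the CTNNB1 pair. The pairs shared the same scatter there, so this checks the arithmetic and not the error of these arrays. Python 3.11.15, numpy 2.4.6, pandas 2.3.3 and matplotlib 3.10.9 were used.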

Additional observations from a re-analysis of the deposited data

Results flagged for a closer look

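Of the genes, 14 had the CTNNB1 and MYC arrays at least 1.5-fold from their controls in opposite directions. With 1 array per group the difference was not tested. Higher with CTNNB1 siRNA and lower with MYC siRNA were DDIT4 (scaled difference 6.40), HMGCS1 (5.50), FAM241A (5.25), ABHD3 (5.08), INSIG1 (5.03), PAPSS2 (4.30), WSB2 (4.04), FRMD3 (3.98), MCU (3.71), TPMT (3.53) and OSTF1 (3.53). The reverse order held DHX40 (-4.73), PURPL (-4.66) and GNPAT (-3.84).

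Probe sets with no listed gene entered no comparison of genes. Of 28794 such probe sets, 187 had a scaled difference past 3 (0.649%), 106 of them high and 81 low, with a range from -10.37 to 8.58. No pair of control arrays could be set against each other to give a background for this count, and the transcripts are unnamed here.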

How the results depend on the processing

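All 184 genes past 3 kept their sign in every alternative in which they were measured. A plain 2-fold gap without scaling was passed by 291 genes above 0 and 243 below, of which 108 and 38 were among the 125 and 59. As the residual from the line on the MYC pair, 83 of the 125 and 20 of the 59 were still past the limit. Below 0 the count was 39 when each pair was divided by its median absolute deviation and 35 among protein-coding genes alone. The remaining counts above 0 ran from 95 to 135, each within 1.5 times the 125. Genes of opposite direction numbered 53 and 47 at 1 SD unit in both pairs, 19 and 7 over all probe sets, and 0 and 0 at 2-fold. The median of the glycolysis list turned to -0.0585 in the plain difference and -0.0478 as the residual from the line on the MYC pair. No paired analysis was possible because each group has 1 array and no result comes from a test; for the same reason no replicate could be left out. Signal over background is lost with the centring, so weakly expressed genes could not be told from strongly expressed ones.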

Other observations

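The 39 measured lysosome genes had medians of 0.21 log2 with CTNNB1 siRNA and 0.19 with MYC siRNA, and a median scaled difference of -0.47. At least 1.5-fold higher were 9 with CTNNB1 siRNA and 7 with MYC siRNA (6.44% and 2.15% of all genes). At least 1.5-fold lower were 3 and 0 (9.8% and 3.63% of all genes). NEU1, the lysosomal sialidase, stood at 1.35 and 1.53, and HEXA, a subunit of hexosaminidase, at 0.21 and 0.76. PPT1, a thioesterase, stood at -1.11 and 0.41, a scaled difference of -3.67. CTSE, an aspartic protease of gastric and gut epithelium, went the other way, at 2.49 and 0.19 with -1.08 in the MYU pair, a scaled difference of 4.23. Autophagy genes had a median scaled difference of -0.43 over 25 members. Their log2 medians were nearly the same, 0.117 with CTNNB1 siRNA and 0.122 with MYC siRNA, and the median of their plain differences was -0.0185. Among them OPTN, an autophagy receptor, stood at 2.04 and 0.55.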
